A study of Mus musculus with 8 samples.

Results

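The genes described here encode the enzymes that build ceramide from serine and palmitoyl-CoA, with the enzyme that turns ceramide into glucosylceramide. They are Sptlc1, Sptlc2, Kdsr, Cers1, Cers2, Cers4, Cers5, Cers6, Degs1 and Ugcg, 10 genes in all. Probes were matched by gene name in the scanner files, with the older names Lass2, Lass4, Lass5 and Lass6 accepted for the ceramide synthases. This gave 10 probes for 9 genes, out of 23593 gene rows tested on the arrays, and each of the 10 probes was well above background on 8 of 8 arrays, so the filter on dim probes removed none of them. The genes were chosen by the difference of Sptlc1 between these same groups of arrays, seen in an earlier look at the data, so their group differences are given as a description with no test.

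Total RNA came from the hippocampi of female C57BL6/J mice aged 8 weeks that had lived for 4 weeks in an enriched environment. One group had been given an anti-CD4 antibody (n = 4), directed at a protein that marks helper T cells, and the other a control antibody (n = 4). Enriched housing, strain, sex and age were common to both groups, and each sample was labelled with Cy3 and hybridised to its own one-colour Agilent array. No label says whether a sample is a single animal or a pool, so the spread between samples may be technical.

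Ceramide is the hub of sphingolipid metabolism. Serine palmitoyltransferase, whose core is a heterodimer of SPTLC1 with SPTLC2 or SPTLC3, makes the sphingoid base in the endoplasmic reticulum, KDSR reduces it, a ceramide synthase attaches a fatty acid and DEGS1 introduces the double bond that completes ceramide. The ceramide synthases differ in the fatty acid they prefer, and in the brain CERS2 supplies the very long chains of myelin lipids while CERS1 serves neurons. Ceramide then goes to sphingomyelin, to the galactolipids of myelin or, through UGCG, to glucosylceramide and the gangliosides of neurons.

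The values below rest on single oligonucleotides, so the probes of the genes that the results turn on are shown here, each by the first 30 of its 60 bases, 5′ to 3′ as the scanner files give them, with the position of the whole probe on mm9. The pair for Sptlc2 is shown because its probes gave opposite signs.
Sptlc1, chr13:53428607-53428666, minus strand: atattctctagtcagttttgggaagagggt
Cers2, chr3:95127163-95127222, plus strand: agaaagctgagctacttttaactttctctt
Cers6, chr2:68948945-68949004, plus strand: tattaatatctctgtctaatgttctcccaa
Degs1, chr1:184206280-184206339, minus strand: ttataagtctcgggaaactgatgaaattct
Sptlc2, chr12:88683609-88683668, minus strand: tgccattgtttatggtcagcctcggacaag
Sptlc2, chr12:88649448-88649507, minus strand: caagaagagaggcagtgtcatttgtgaagc
Per the scanner files, the Sptlc1 probe starts at base 2020 of its transcript and the Sptlc2 probes start at bases 934 and 3085 of theirs. Over all 60 bases the probes of Sptlc1, Cers2 and Cers6 hold 35.0%, 35.0% and 36.7% G and C, and those of Degs1 and Sptlc2 40.0% and 43.3%. The probes of Cers5, Ugcg, Kdsr and Cers4 hold 35.0%, 38.3%, 41.7% and 55.0%. The part of probe composition in the differences was not tested.

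All 8 arrays lay on 1 slide and were scanned together. Row 1 held the 4 anti-CD4 arrays and row 2 the 4 controls, so the effects of row and antibody cannot be told apart. On each array 51.1% to 54.3% of the 55681 probes passed the scanner software's background test, with 0 saturated spots. Precision is limited by having 8 arrays. Myelin, pyramidal and dentate marker genes were detected, with 11 of 11, 7 of 8 and 9 of 9 measured, whereas choroid plexus signal varied widely in both groups, with list means of -2.94 to 3.28 in controls and -1.80 to 3.86 in the anti-CD4 group. Of 8 T lymphocyte markers 3 were measured, and Cd4, the antigen gene, read 1.85 to 2.19 in controls and 1.95 to 2.23 in the anti-CD4 group with one probe, while its other probe was well above background on 0 of 8 arrays. The mean of 5 red blood cell genes was 1.95 to 2.38 in controls and 2.62 to 2.85 in the anti-CD4 group, with 5 of 5 higher. Endothelial markers were higher for 5 of 7 genes (median difference 0.24, list means 0.52 to 0.79 against 0.72 to 0.97) and pyramidal markers lower for 4 of 7 (median -0.28, list means 2.76 to 2.998 against 2.53 to 2.88). The part of these markers in the results below was not tested. In whole tissue, fewer cells of a type and less RNA per cell cannot be told apart.

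Across the pathway, 6 of the 9 measured genes were lower and 3 were higher in the anti-CD4 group, with differences from -0.37 to 0.12 and a median of -0.12. Over all 23593 gene rows the median difference was 0.01, 48.2% of rows were lower, and the 5th and 95th percentiles were -0.33 and 0.33. Sptlc1, Cers2 and Cers6 lay below that range and the other 6 genes inside it. Values are log2 processed signals relative to the 75th percentile of their array, differences are anti-CD4 minus control, and the ratio of signals, anti-CD4 over control, is 0.777 where the difference is -0.36. The groups did not overlap for 2 of the 9 genes, Sptlc1 and Degs1, both lower, where 8.19% of all rows had groups that did not overlap and 4.37% did so with the anti-CD4 group lower and 3.82% with it higher. Over all rows, limma called 0 genes at a Benjamini-Hochberg adjusted p of 0.05, or 0%, and 3064 rows had an unadjusted p under 0.05.

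**Figure D1:**
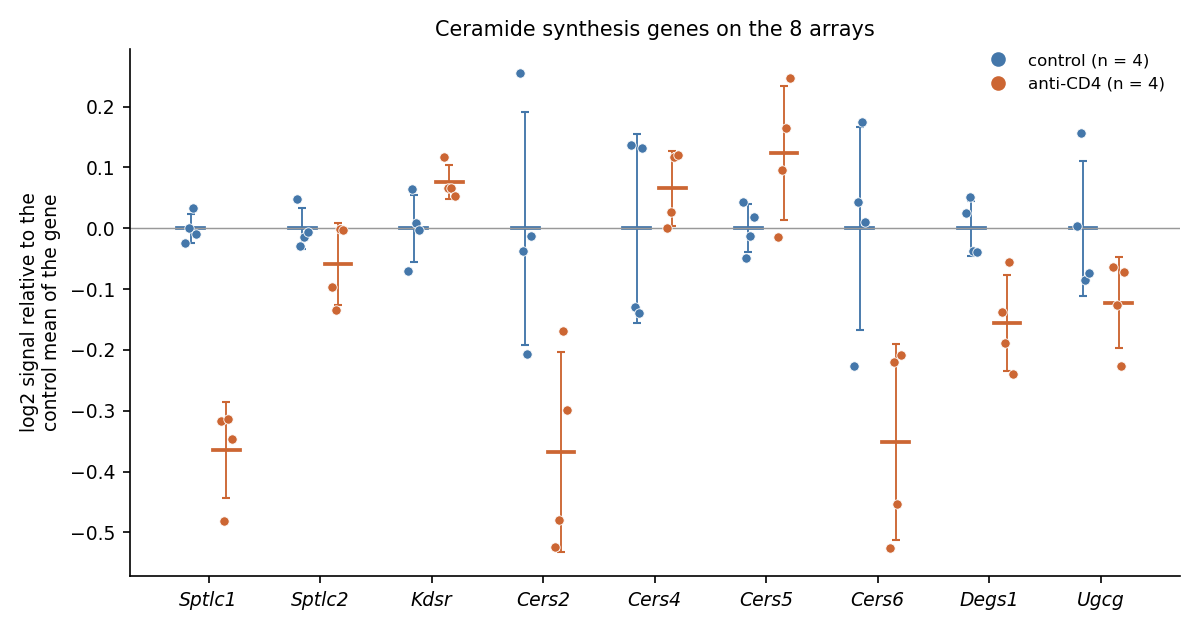
Log2 signal of the 9 measured ceramide synthesis genes on each array, relative to the control mean of the gene (vertical axis, log2). Points are arrays, horizontal bars are group means and error bars are SD (n = 4 per group). All 4 anti-CD4 points of Sptlc1 lie below its control points, with a gap of 0.29, whereas the groups of Cers2 and Cers6 overlap.

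Sptlc1 encodes a subunit of serine palmitoyltransferase that the enzyme cannot work without. Its log2 values were 1.03, 1.05, 1.09 and 1.04 on control arrays 1 to 4, and 0.74, 0.57, 0.74 and 0.71 on anti-CD4 arrays 1 to 4. The highest anti-CD4 array lay 0.29 below the lowest control array, so the groups were well apart on this scale. The corresponding processed signals, before scaling, were 1879.5, 1753.8, 1570.0 and 1508.5 in controls and 1199.3, 1131.0, 1283.8 and 1190.5 in the anti-CD4 group, which did not overlap either. Unscaled signals also carry the brightness of the array. The 75th percentiles of the arrays were 921.2, 845.4, 739.5 and 732.2 in controls and 719.9, 760.6, 768.7 and 729.3 in the anti-CD4 group. On the log2 scale the group means of Sptlc1 were 1.05 ± 0.02 and 0.69 ± 0.08 (SD, n = 4), a difference of -0.36 ± 0.06 (SE) and a ratio of 0.777.

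As a description of the values that chose it, 3.86% of gene rows had a difference as low as that of Sptlc1, and 0.822% had a control SD as small, where the median control SD was 0.14. The probe has 1 spot per array, none was marked as an outlier, and the scanner software gave each spot a signal error of 10.01% to 10.03%. The pattern was alike from other processing of the same scans: with normexp background correction the means were 1.09 and 0.72, and in the authors' deposited table of log2 values they were 10.89 and 10.53, a difference of -0.37.

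Sptlc2 encodes the catalytic partner of SPTLC1, and neither of its probes had groups that stood apart. The brighter Sptlc2 probe, at transcript base 934, read -1.84, -1.92, -1.91 and -1.90 in controls and -1.99, -2.03, -1.89 and -1.90 in the anti-CD4 group. These ranges overlap, and the difference was -0.06 ± 0.06 (SE). The dimmer probe, nearer the transcript's end at base 3085, read -2.50, -2.81, -2.56 and -2.54 in controls and -2.45, -2.54, -2.16 and -2.45 in the anti-CD4 group, 0.20 higher on average. The mean of both probes differed by 0.07, so the sign for Sptlc2 depends on the probe. Sptlc3, the alternative catalytic subunit, was near background, with its tested probe well above background on 4 arrays and another probe on 0.

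Kdsr encodes the reductase of the next step, and its probe has 10 spots per array. It read 1.14, 1.28, 1.22 and 1.21 in controls and 1.33, 1.28, 1.28 and 1.27 in the anti-CD4 group. The difference was 0.08 ± 0.06 (SE), and the groups overlapped by a narrow margin, at control replicate 2. Within an array the SD over its 10 spots was 0.04 to 0.06 on the log2 scale, which shows how far repeat spots of the same RNA varied on these arrays.

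Of the ceramide synthases, Cers2 and Cers6 were lower and Cers4 and Cers5 were not. Cers2, the synthase of very long chain ceramides, read 1.64, 1.35, 1.18 and 1.37 in controls and 0.86, 0.90, 1.21 and 1.09 in the anti-CD4 group. Its difference of -0.37 ± 0.12 (SE) was the size of that of Sptlc1, but its controls spread over 0.19 (SD) and anti-CD4 replicate 3 lay above control replicate 3. The difference was -0.28 without control replicate 1, the brightest, and -0.44 without control replicate 3.

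Cers6, a synthase that prefers palmitoyl chains, read -2.53, -2.26, -2.13 and -2.29 in controls and -2.83, -2.52, -2.76 and -2.51 in the anti-CD4 group. The groups overlapped through control replicate 1, and the difference was -0.35 ± 0.11 (SE). Its probe was dim, with processed signals of 149.3 to 176.3 in controls and 101.3 to 132.3 in the anti-CD4 group, and the difference was -0.24 with normexp and -0.23 in the authors' deposited table. Before scaling to the array, the signals of the groups did not overlap, but unscaled signals also carry the array brightness given above for Sptlc1.

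Cers5, which also makes palmitoyl ceramides, read 2.99, 2.90, 2.93 and 2.97 in controls and 2.93, 3.04, 3.11 and 3.19 in the anti-CD4 group. It differed by 0.12 ± 0.07 (SE), in the other direction. Anti-CD4 replicate 1 lay among the controls. Cers4, a synthase of long chain ceramides, read 2.03, 1.77, 1.76 and 2.03 in controls and 1.90, 1.92, 2.01 and 2.02 in the anti-CD4 group, with a difference of 0.07 ± 0.09 (SE) that was -0.0029 in the authors' deposited table. All its anti-CD4 arrays fell inside the control range.

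Cers1, the neuronal synthase, had no probe under its own name. Its transcript also carries the growth factor gene Gdf1, and 2 probes named Gdf1 list the Cers1 transcript among those they read, so their signal cannot be assigned to either. They differed by -0.01, with control values of 5.52 to 5.84 and anti-CD4 values of 5.69 to 5.74, and by 0.14, with -1.71 to -1.39 against -1.62 to -1.05. Both pairs of ranges overlap, and neither probe is counted among the 9 genes.

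Degs1, the desaturase of the last step, read 3.99, 4.02, 3.93 and 3.93 in controls and 3.83, 3.78, 3.91 and 3.73 in the anti-CD4 group. The groups were apart by 0.02, a much narrower gap than that of Sptlc1. They overlapped before scaling, with processed signals of 11158.4 to 14684.0 in controls and 9677.5 to 11584.9 in the anti-CD4 group, and they also overlapped with quantile normalization and with centring on the array median. The difference was -0.16 ± 0.06 (SE), and -0.23 in the authors' deposited table. Ugcg, which commits ceramide to glucosylceramide, read 0.89, 1.05, 0.81 and 0.82 in controls and 0.83, 0.77, 0.67 and 0.82 in the anti-CD4 group. Its difference of -0.12 ± 0.08 (SE) was -0.05 with normexp and -0.03 in the authors' deposited table.

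**Figure D2:**
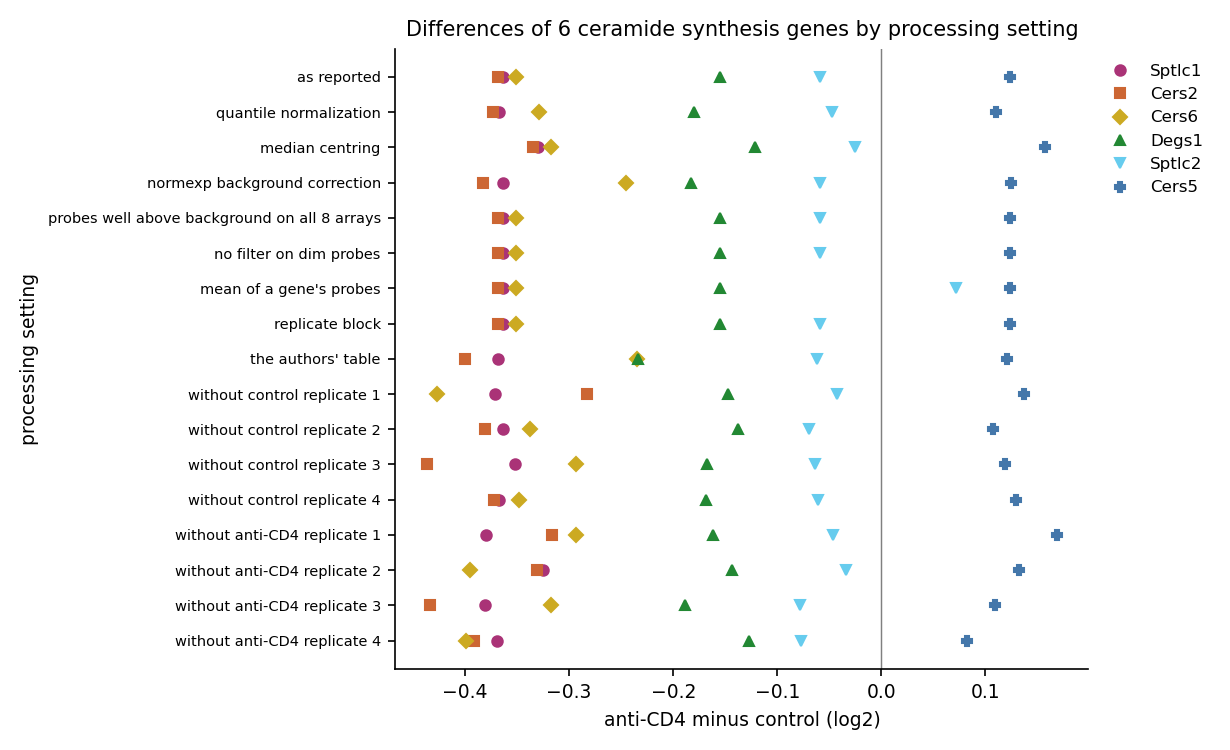
Difference between the groups (horizontal axis, anti-CD4 minus control, log2) for 6 ceramide synthesis genes under each processing setting (vertical axis), including each array left out in turn. Sptlc1 stays between -0.38 and -0.32, Cers2 and Cers6 move more widely, and Sptlc2 changes sign where its probes are averaged.

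Processing moved the members unequally. Over the settings run, single arrays left out included, Sptlc1 ranged from -0.38 to -0.32. Its groups did not overlap with quantile normalization, median centring, normexp or the authors' deposited table, with the narrowest gap, 0.17, under median centring. The other settings could not show overlap, since they left its values unchanged or only removed an array. Cers2 ranged from -0.44 to -0.28 and Cers6 from -0.43 to -0.23. Sptlc1, Cers2, Cers6 and Degs1 had groups that did not overlap in the authors' deposited table, and with quantile normalization only Sptlc1 did.

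The probe for Cers2 ends 321 bases from the start of a probe for Setdb1, a histone methyltransferase gene on the opposite strand. Setdb1 was chosen after its value was seen. It read 0.04, 0.06, -0.04 and -0.04 in controls and -0.30, -0.10, -0.15 and -0.19 in the anti-CD4 group. It differed by -0.19 ± 0.07 (SE), with groups that did not overlap. Whether the signals of these neighbours are related was not tested.

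Other genes of sphingolipid metabolism had a median near that of all rows. Of 52 listed genes 49 were measured, 22 lower and 27 higher, with a median difference of 0.02. None of the 49 passed the adjusted threshold in either direction (limma, smallest adjusted p = 0.247), and 5 had an unadjusted p under 0.05, 2 higher and 3 lower, where 13.0% of all rows did. The groups did not overlap for 6 of the 49, against the 8.19% of all rows given above.

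None of the 5 measured partner genes of serine palmitoyltransferase passed the threshold, and 3 were higher and 2 lower. Sptlc3, near background as described above, had the highest and least certain difference of the 49 genes, 0.44 ± 0.54 (SE). The small subunit gene Sptssa differed by -0.01 ± 0.10 (SE), and the ORMDL genes, which encode the proteins that restrain the enzyme when ceramide is plentiful, by -0.08 for Ormdl1, 0.06 for Ormdl2 and 0.12 for Ormdl3. The smallest adjusted p among them was 0.525 (limma), that of Ormdl3. Sptssb, the other small subunit, was not measured.

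Downstream, each branch held genes of both signs. Of 8 genes of ceramide transport and sphingomyelin 5 were higher and 3 lower, with differences from -0.18 to 0.18 and a median of 0.07. Sgms1, the sphingomyelin synthase of the Golgi, read 2.64, 2.73, 2.69 and 2.78 in controls and 2.94, 2.83, 2.91 and 2.90 in the anti-CD4 group, 0.18 ± 0.06 (SE) higher with groups that did not overlap (adjusted p = 0.283, limma). Its dimmer probe differed by -0.05. Smpd1, the acid sphingomyelinase that releases ceramide in lysosomes, was 0.15 above controls (adjusted p = 0.411, limma), and Cert1, which carries ceramide to the Golgi, 0.13 (adjusted p = 0.647, limma).

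In the galactolipid branch, which supplies myelin, 3 of 4 genes were lower. Galc, the lysosomal galactosylceramidase, differed by -0.25 ± 0.09 (SE; adjusted p = 0.288, limma), with groups that did not overlap, but by -0.07 with normexp and -0.03 in the authors' deposited table. Ugt8a, the enzyme that makes galactosylceramide, differed by -0.34 ± 0.13 (SE; adjusted p = 0.335, limma) and Fa2h, which hydroxylates the fatty acids of myelin lipids and was listed with the synthases, by -0.22 ± 0.10 (SE; adjusted p = 0.389, limma). Both had overlapping groups.

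In the glucosylceramide and ganglioside branch 9 of 13 genes were higher and 4 lower, with a median of 0.04. St3gal5, the sialyltransferase that makes GM3, read 4.44, 4.49, 4.45 and 4.44 in controls and 4.66, 4.70, 4.58 and 4.75 in the anti-CD4 group. That was 0.22 ± 0.06 (SE) higher with groups that did not overlap, and its adjusted p of 0.247 (limma) was the smallest of the 49 genes. B4galnt1, the transferase of the next steps to complex gangliosides, differed by -0.16 ± 0.06 (SE; adjusted p = 0.319, limma) with groups that did not overlap.

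Of 14 genes of ceramide breakdown and sphingosine 1-phosphate 7 were higher and 7 lower. Asah1, the acid ceramidase, differed by -0.09 and Sphk2, a sphingosine kinase, by -0.11 with groups that did not overlap (adjusted p = 0.675 and 0.490, limma). Of the 6 genes with groups that did not overlap, Sgms1 and St3gal5 had this also with quantile normalization, median centring, normexp and in the authors' deposited table. Smpd1 had it with median centring, and B4galnt1 and Sphk2 with quantile normalization. With the mean of its probes, the groups of Sgms1 overlapped.

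**Figure D3:**
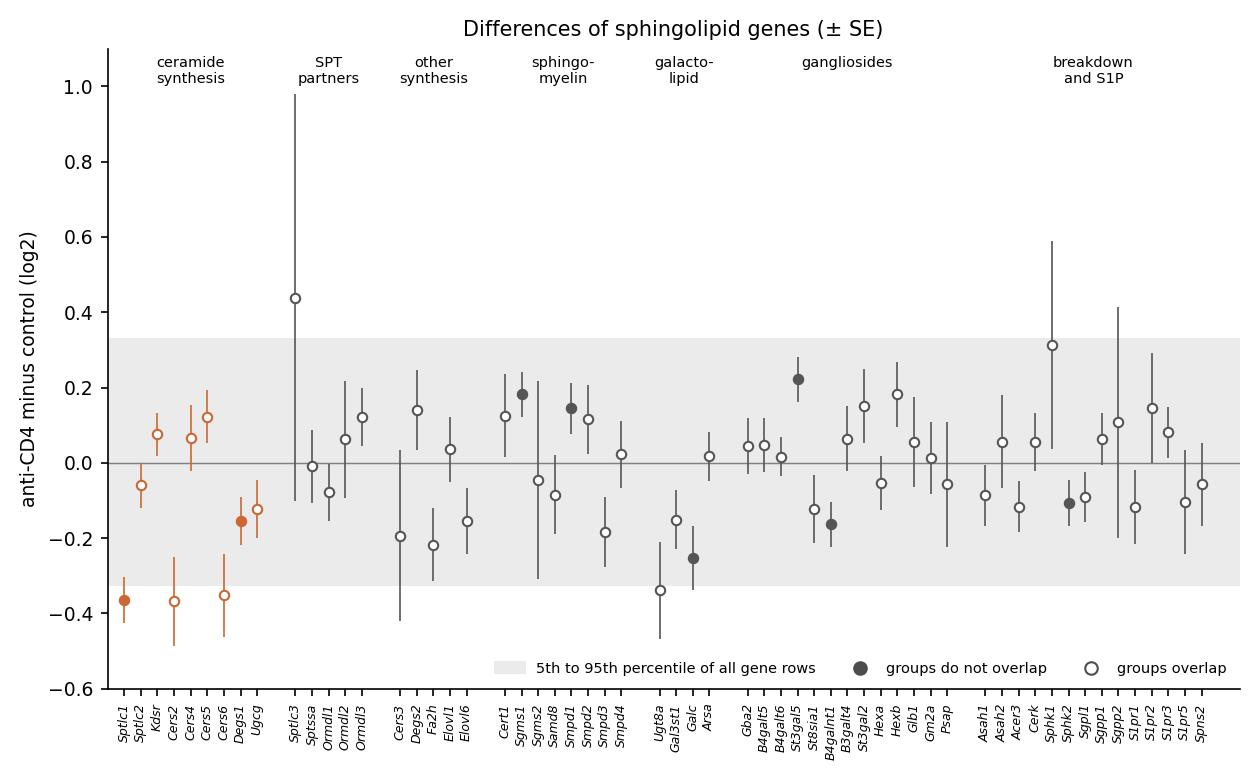
Difference between the groups (vertical axis, anti-CD4 minus control, log2, ± SE, n = 4 per group) for the 9 ceramide synthesis genes (orange) and 49 other sphingolipid genes (grey) in order of branch; SPT is serine palmitoyltransferase and S1P is sphingosine 1-phosphate. Filled points mark groups that do not overlap and the band spans the 5th to 95th percentiles of all gene rows, -0.33 to 0.33; below it lie Sptlc1, Cers2 and Cers6 of the members and Ugt8a of the other genes.

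Because ceramide feeds myelin, members were set against the mean of 11 oligodendrocyte and myelin markers on each array. That mean was 3.87, 3.87, 3.61 and 3.65 in controls and 3.71, 3.44, 3.89 and 3.57 in the anti-CD4 group, with 7 of 11 genes lower and a median difference of -0.14. Over the 8 arrays Degs1 followed it with r = 0.74 (exact permutation p = 0.0381; rho = 0.60, exact permutation p = 0.132), r = 0.88 over deviations from the group means and r = 0.75 without the 2 arrays farthest from the median. Of 18 relations computed, 9 genes with 2 lists, none passed after Benjamini-Hochberg adjustment, and the adjusted p for Degs1 was 0.343 for r and 0.476 for rho. The permutations shuffle all 8 arrays across the groups, so r, rho and p also carry the group difference by which Sptlc1 was chosen. Cers2 had r = 0.62 (exact permutation p = 0.103, adjusted p = 0.386; rho = 0.50, exact permutation p = 0.216, adjusted p = 0.649), 0.57 without the 2 farthest arrays and 0.62 over deviations. In anti-CD4 replicate 3, whose myelin mean was the highest of all arrays, Degs1 and Cers2 were the highest of their group. Sptlc1 was too, by a narrow margin, at 0.7399 against 0.7363 in anti-CD4 replicate 1. Cers6 in anti-CD4 replicate 3, at -2.76, lay below anti-CD4 replicates 2 and 4. With the myelin mean, Sptlc2 had r = 0.59, Ugcg 0.30 and Cers4 0.04, while Kdsr, Cers6 and Cers5 had -0.18, -0.19 and -0.23. Over deviations from the group means Cers6 had r = -0.73. The part of myelin content in the members' differences was not tested.

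Sptlc1 had r = 0.44 with the myelin mean (exact permutation p = 0.262, adjusted p = 0.590; rho = 0.40, exact permutation p = 0.327, adjusted p = 0.735), 0.39 without the 2 farthest arrays and 0.54 over deviations from the group means. Within the controls alone r was -0.63 and within the anti-CD4 group 0.84 (n = 4 each), so the sign differed between the groups. Little rests on that sign. The control values of Sptlc1 spanned only 1.03 to 1.09 (SD 0.02), while repeat spots of Kdsr had an SD of 0.04 to 0.06 within an array. In the anti-CD4 group, replicate 2 was lowest for both, at 0.57 for Sptlc1 and 3.44 for the myelin mean.

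**Figure D4:**
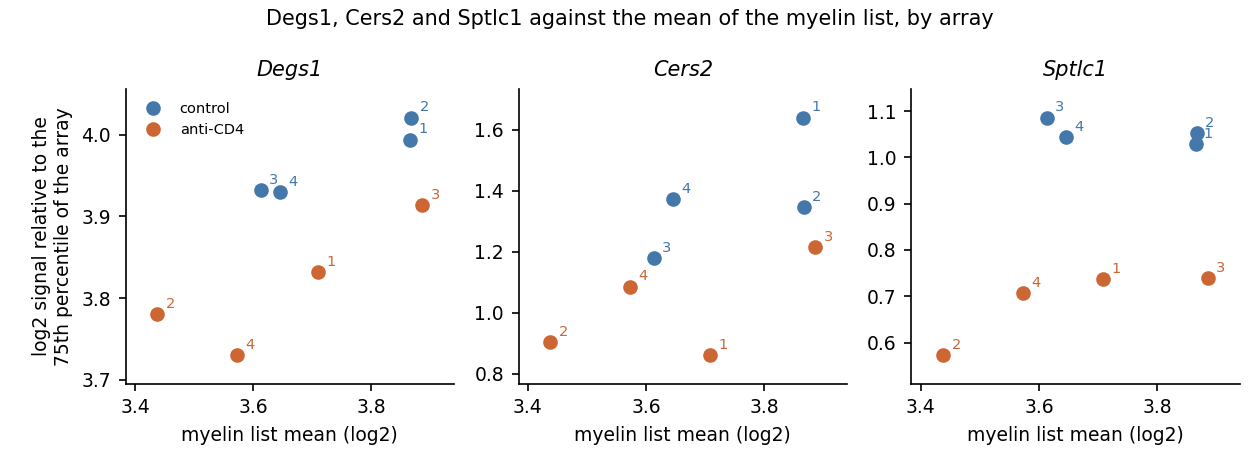
Log2 signal of Degs1, Cers2 and Sptlc1 (vertical axes, relative to the 75th percentile of the array) against the mean of 11 myelin and oligodendrocyte genes (horizontal axes, log2) on the 8 arrays, numbered by replicate. Control myelin means span 3.61 to 3.87 and anti-CD4 means 3.44 to 3.89, and Degs1 follows them most closely, with r = 0.74.

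The mean of 9 dentate granule neuron markers was -0.33, 0.09, -0.07 and -0.28 in controls and -0.15, -0.80, -0.13 and -0.59 in the anti-CD4 group, with 8 of 9 genes lower. Degs1 had r = 0.75 with it (exact permutation p = 0.0327, adjusted p = 0.343; rho = 0.67, exact permutation p = 0.0831, adjusted p = 0.476) and Sptlc1 r = 0.67 (exact permutation p = 0.0721, adjusted p = 0.386; rho = 0.79, exact permutation p = 0.0279, adjusted p = 0.476). Without the 2 arrays farthest from the median, anti-CD4 replicates 2 and 4, these values were 0.21 and 0.06, so the relations over all arrays rest on those arrays, and over deviations from the group means they were 0.68 and 0.81. Anti-CD4 replicate 2 was the array with the lowest Sptlc1 and the lowest dentate and myelin means. Without it the Sptlc1 difference was -0.32. The other members had r with the dentate mean from -0.61 for Cers5 and -0.50 for Cers4 to 0.38 for Ugcg. As with the myelin list, r, rho and p over all arrays also carry the group difference by which Sptlc1 was chosen.

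By Pearson's r over the 8 arrays, the 5 genes with characterised symbols whose pattern was most like that of Sptlc1, of 14220 ranked, were Plppr2 (0.98), Sdhaf4 (0.98), Ctu1 (0.97), Fam72a (0.97) and Shank3 (0.97), the last a postsynaptic scaffold gene. Each was lower in the anti-CD4 group, with differences of -0.35 to -0.24. This ranking uses the group difference itself. Over deviations from the group means r was 0.75, 0.83, 0.57, 0.65 and 0.44 in the same order. Among the members the closest to Sptlc1 was Degs1, with r = 0.83, followed by Cers2 with 0.75, Cers6 with 0.70 and Sptlc2 with 0.63. Over deviations from the group means these were 0.31, 0.07, -0.26 and 0.50, the last for Sptlc2, the partner subunit. That value leaned on anti-CD4 replicate 2, the lowest array for both genes, at 0.57 for Sptlc1 and -2.03 for Sptlc2. Among the controls the 2 genes did not move together. Control replicate 1 had the lowest control value of Sptlc1, 1.03, and the highest of Sptlc2, -1.84.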

How the data were processed

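Each deposited scanner file holds 1 array. Its processed signal is an intensity from Feature Extraction 10.7.3.1 with spatial and multiplicative detrending within the array switched on (design 028005, mm9), per the file headers. The authors also deposited a table of log2 values covering the 55681 probes, with column medians of 7.83. Beyond limma, which the submitters' processing notes name, how it was made is not given in the sources used here. Control spots were dropped and log2 signals of repeat spots averaged without outlier-flagged spots, unless all were flagged. The 75th percentile of each array was subtracted. Probes well above background on at least 4 of 8 arrays (29403) were tested, and a gene is its brightest such probe. Probes were named through a RefSeq table (GRCm38.p6), 27598 by accession, 3493 by symbol and 393 by synonym; 1777 kept the name in the file and 22420 had none. Groups were compared with lmFit and eBayes (limma 3.58.1, R 4.3.3), two-sided, Benjamini-Hochberg adjusted over 23593 rows, and SEs are limma's. The fit was tested on simulated data. Permutation tests used all pairings of the 8 arrays.

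The members and gene lists were chosen with earlier results of these data known. The text names every member, other sphingolipid genes whose groups did not overlap plus 9 named whatever their values (a further gene of that list is not reported here and enters no count of it), and the 5 genes most like Sptlc1. Same-numbered arrays of replicates 1 to 3 did not deviate together (correlations of -0.45 to -0.29), while those of replicate 4 had a correlation of 0.31. Numbers were not treated as pairs in the main fit. The replicate number was also the slide column, 1 to 4, in both groups. Alternatives covered normalization, background, filter, probe choice, the replicate block, the authors' table and each array left out. Promoter sequences were not used.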

Additional observations from a re-analysis of the deposited data

Results flagged for a closer look

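For the members, the other sphingolipid genes named in the text by rule and the marker list means, the 4 values of each group were checked for an array lying far from the rest, and 2 of 66 such sets held one (3.03%). The remaining sphingolipid genes were not checked in this way. About 1 in 20 would by chance. Neither belonged to the ceramide synthesis genes themselves. Sptssa, the small subunit gene of serine palmitoyltransferase, read 1.202 in control replicate 2, above 0.8648 to 0.885 in the other controls, and it read 0.7884 in anti-CD4 replicate 2, where the remaining anti-CD4 arrays read 0.9833 to 1.022.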

How the results depend on the processing

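The number of genes past the adjusted threshold was 2 in the authors' table and 0 to 11 with an array left out, the 11 without anti-CD4 replicate 3. Of the sphingolipid genes none passed in any setting. The members' median of -0.12 was -0.059 with normexp, -0.062 in the authors' table and -0.151 to -0.070 with an array left out. Members with groups that did not overlap numbered 1 with quantile normalization and with median centring, 4 in the authors' table and 2 to 3 with an array left out. Sptlc2 differed by 0.072 as the mean of its probes, and Degs1 by -0.23 in the authors' table. The median of the other sphingolipid genes was 0.052 with median centring and -0.020 to 0.029 with an array left out. Their number with groups that did not overlap was 3 with median centring, with normexp and in the authors' table, and 6 to 10 with an array left out. Sgms1 differed by 0.06 as the mean of its probes, and Smpd1 by 0.06 in the authors' table. The correlations of Sptlc1 and Degs1 with the dentate mean were 0.057 and 0.21 without the 2 farthest arrays. With the replicate block the member differences are the same by construction, 0 genes passed, and the unadjusted count was 2209 against 3064. With normexp Cers6 differed by -0.24, Ugcg by -0.05 and Cers4 by 0.01, and 8 arrays limit all values.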
